A study of Rattus norvegicus with 12 samples.

Results

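Extrachromosomal circular DNA (eccDNA) was sequenced from the back skin of rats, and the circles described here are the exonic ones under 1000 bp. They are the entries of the authors' merged list that carry the annotation type exon, span less than 1000 bp and do not lie on the mitochondrial genome. There were 10452 of them among 228352 eccDNA entries of all types and lengths. They made up 4.63% of the 225759 circles under 1000 bp and 97.3% of the 10737 exonic circles of any length. The rule used only the annotation type, the length and the chromosome. The number and support of these circles in each library were not used to choose them. Length was used through the limit of 1000 bp, so every length measure below is of circles under that limit. At the length limit the list held 26 exonic circles in the last 50 bp inside it and 21 in the first 50 bp outside it, and the shortest circle left out measured 1000 bp.

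All rats were wild-type (WT) animals of the SD strain, housed under specific-pathogen-free conditions. The control group was untreated and is represented by 4 libraries. The low dose group received electron beam radiation on the back skin as weekly fractions of 5 Gy, 2 in all (5 Gy x2, 4 libraries), and the high dose group received 4 such fractions (5 Gy x4, 4 libraries). Irradiated skin was taken on day 7 after the irradiation. The labels give no sampling time for the controls and no age or sex, so total dose and time since the first fraction cannot be told apart. Whether replicate libraries are different rats is likewise unstated, and every p-value therefore measures only the spread between libraries. Skin is a mixture of cell types, and circles of different cells cannot be told apart in these libraries.

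Small eccDNAs are short circles of chromosomal DNA, found in normal and stressed tissue, and they usually carry no complete gene. Fragments of nuclear DNA that are ligated end to end are one known source, and the lengths of small circles often cluster near the DNA content of whole nucleosomes. A circle called exonic contains a piece of an annotated exon, not a transcribed or spliced product: it is DNA and is unrelated to circular RNA. Circle-seq enriches such DNA by column purification and exonuclease digestion of linear DNA, and a circle is recognised by reads that run across its junction (split reads) or by read pairs that face outward (discordant reads).

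The libraries differed in depth. Reads that support a circle ranged from 35525 to 404815 per library over all entries, and circles under 1000 bp from 3300 to 45500. Control replicate 4 held the fewest such circles. A median of 6 exonic circles was shared by a pair of libraries, which is a median of 1.69% of the smaller library's exonic circles, and the highest share was 20.7%, between control replicates 2 and 4. No pair of libraries therefore looked like 1 library deposited again.

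The exonic circles were short and thinly supported. Their lengths ran from 10 to 997 bp with quartiles of 340, 361 and 382 bp. The median circle had 4 supporting reads summed over the libraries and 2051 circles had a single read. A single annotated gene was listed for 9626 circles and 2 to 4 genes for the other 826. The authors' confidence labels, which the sources used here do not define, were hconf for 2448 circles, conf for 1526 and lconf for 6478. Counting a circle once in each library that held it gave 10810 detections, of which 887 (8.21%) were in control, 3577 (33.1%) with 5 Gy x2 and 6346 (58.7%) with 5 Gy x4 libraries.

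The first comparison asks whether irradiated skin yielded more exonic circles. The control libraries held 151, 310, 368 and 58 exonic circles under 1000 bp. The 5 Gy x2 libraries held 711, 1334, 1247 and 285. The 5 Gy x4 libraries held 1023, 2205, 2238 and 880. Every 5 Gy x4 library lay above every control library, while 5 Gy x2 replicate 4 lay below control replicates 2 and 3. Circles under 1000 bp of any type showed the same order, so a higher number was not particular to exonic circles. The control libraries held 4501, 9033, 9999 and 3300 of them. The 5 Gy x2 libraries held 18682, 28033, 27154 and 6104, and the 5 Gy x4 libraries 21777, 44235, 45500 and 19849.

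The mean number was 222 ± 143 (SD, n = 4) in control, 894 ± 491 (n = 4) with 5 Gy x2 and 1586 ± 736 (n = 4) with 5 Gy x4. Relative to control the number was 7.15-fold in 5 Gy x4 (two-sided exact permutation test, p = 0.0286, the smallest that 4 against 4 libraries allow) and 4.03-fold in 5 Gy x2 (exact p = 0.0857). The high dose was 1.77-fold the low dose (exact p = 0.229). These tests belong to a family of 15, made of 5 measures in 3 pairs of groups, and after Benjamini-Hochberg adjustment the smallest p in the family was 0.0612, so none of the 15 passed 0.05.

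The number of circles can depend on the supporting reads of a library, a relation that was not tested here. It was therefore also computed as the number expected when each library was drawn down to 32211 supporting reads. This equalises the reads assigned to circles and not the sequencing depth, which is not given in the sources used, and reads per circle differed between libraries. Control libraries then held 151, 231, 267 and 53.6 exonic circles, 5 Gy x2 libraries 441, 799.5, 692 and 262, and 5 Gy x4 libraries 628, 921, 941 and 545. At equal supporting reads the mean of 5 Gy x4 was 4.32-fold that of control (exact p = 0.0286) and the mean of 5 Gy x2 was 3.12-fold (exact p = 0.0571), and 5 Gy x2 replicate 4 still lay below control replicate 3. Per 10000 supporting reads, a plain ratio, 5 Gy x4 was 2.86-fold control (exact p = 0.0571) and 5 Gy x2 was 2.76-fold control (exact p = 0.2). On that scale the high dose was 1.04-fold the low dose (exact p = 0.943).

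The exonic share, the percentage of circles under 1000 bp that were exonic, separated the irradiated libraries from the controls. It was 3.35%, 3.43%, 3.68% and 1.76% in control, 3.81%, 4.76%, 4.59% and 4.67% with 5 Gy x2 and 4.70%, 4.98%, 4.92% and 4.43% with 5 Gy x4. The lowest irradiated library, 5 Gy x2 replicate 1 (exact 95% binomial interval 3.54 to 4.09%), lay just above the highest control library, replicate 3 (3.32 to 4.07%), and those intervals, which cover counting error only, overlap. The lowest control library had an interval of 1.34 to 2.27%.

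The mean share was 3.06% ± 0.877 (SD, n = 4) in control, 4.46% ± 0.439 (n = 4) with 5 Gy x2 and 4.76% ± 0.249 (n = 4) with 5 Gy x4. It was 1.40 percentage points higher in 5 Gy x2 and 1.70 points higher in 5 Gy x4 than in control (exact permutation p = 0.0286 for each, adjusted p = 0.0612). The doses differed from each other by 0.302 points (exact p = 0.286). Counted against exonic and intronic circles alone, the exonic part was 8.17% ± 2.41 (n = 4) in control, 12.2% ± 0.858 (n = 4) with 5 Gy x2 and 12.9% ± 0.568 (n = 4) with 5 Gy x4. Without control replicate 4 the 5 Gy x2 difference was 0.967 points and the 5 Gy x4 difference 1.27 points.

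**Figure D1:**
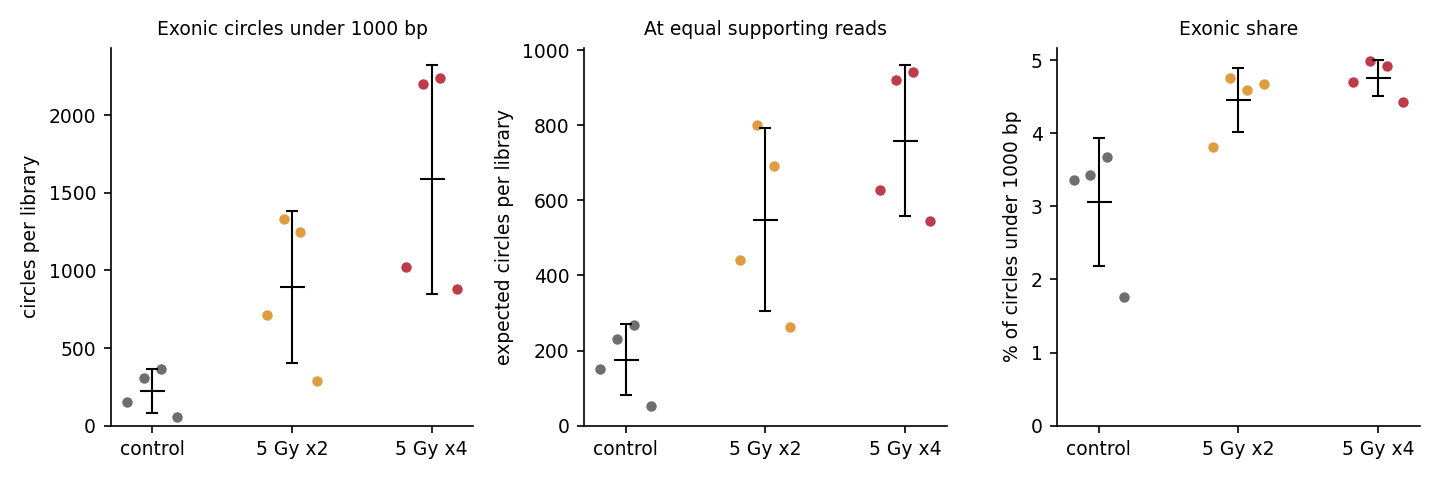
Exonic circles under 1000 bp in each library: the number (left), the number expected at 32211 supporting reads (middle) and the percentage of all circles under 1000 bp (right). Points are libraries in replicate order, and bars give the mean and SD of 4 libraries. In the right panel the 4 control libraries end at 3.68% and the irradiated libraries start at 3.81%.

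Length was the second property in which the groups differed. Of the exonic circles of a library, 41.7%, 45.5%, 58.7% and 29.3% measured 330 to under 420 bp in control, against 77.2%, 73.4%, 74.3% and 66.7% with 5 Gy x2 and 73.4%, 74.97%, 72.9% and 72.8% with 5 Gy x4. No irradiated library fell below 66.7% and no control library exceeded 58.7%. The group means were 43.8% ± 12.1, 72.9% ± 4.46 and 73.5% ± 0.987 (SD, n = 4 each), a difference from control of 29.1 points for 5 Gy x2 and 29.7 points for 5 Gy x4 (exact permutation p = 0.0286 for each, adjusted p = 0.0612). The doses differed by 0.633 points (exact p = 0.829). The shift was not particular to exonic circles. Of intronic circles under 1000 bp, 32.0% had this length in control, 66.5% with 5 Gy x2 and 67.6% with 5 Gy x4. Of intergenic circles it was 34.7%, 68.4% and 67.9%.

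What the controls held in place of this class lay on both sides of it. Circles of 150 to under 250 bp made up 20.5%, 21.6%, 20.9% and 22.4% of the exonic circles of the control libraries, and between 6.97% and 13.3% in the irradiated libraries. Circles under 150 bp ranged from 1.99% to 10.3% in control and from 0.114% to 1.75% in irradiated libraries. Circles of 420 to under 1000 bp ranged from 9.24% to 32.8% in control and from 6.74% to 13.6% in irradiated libraries, and circles of 250 to under 330 bp from 5.17% to 13.2% in control and from 4.89% to 7.02% in irradiated libraries. The groups overlapped in these last 2 classes and not in the first 2.

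The median length of the exonic circles was 358, 347, 354 and 354 bp in control, 366, 366, 364 and 360 bp with 5 Gy x2 and 361, 361, 362 and 366 bp with 5 Gy x4, and the irradiated medians all lay above the control medians. The mean of the medians was 10.75 bp higher in 5 Gy x2 and 9.25 bp higher in 5 Gy x4 than in control (exact permutation p = 0.0286 for each, adjusted p = 0.0612). Among hconf circles alone these differences were 18.25 bp each, with an exact p = 0.600 for 5 Gy x2 and 0.686 for 5 Gy x4. For intronic circles the mean of the medians was 321.5 bp in control, 360.25 bp with 5 Gy x2 and 359.5 bp with 5 Gy x4. For intergenic circles it was 328, 363.75 and 361.75 bp.

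Within the length distribution the exonic circles formed a comb of local peaks. The upper series lay at 315, 326, 337, 347, 358, 370, 380 and 391 bp, and the lower series at 190, 200, 211, 221, 234 and 245 bp. The most frequent single length was 358 bp, with 216 circles. DNA cut on the surface of nucleosomes is known for peaks spaced near the helical repeat. Whether that bears on these circles was not tested, and the peaks are a description of the lengths pooled over all libraries.

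**Figure D2:**
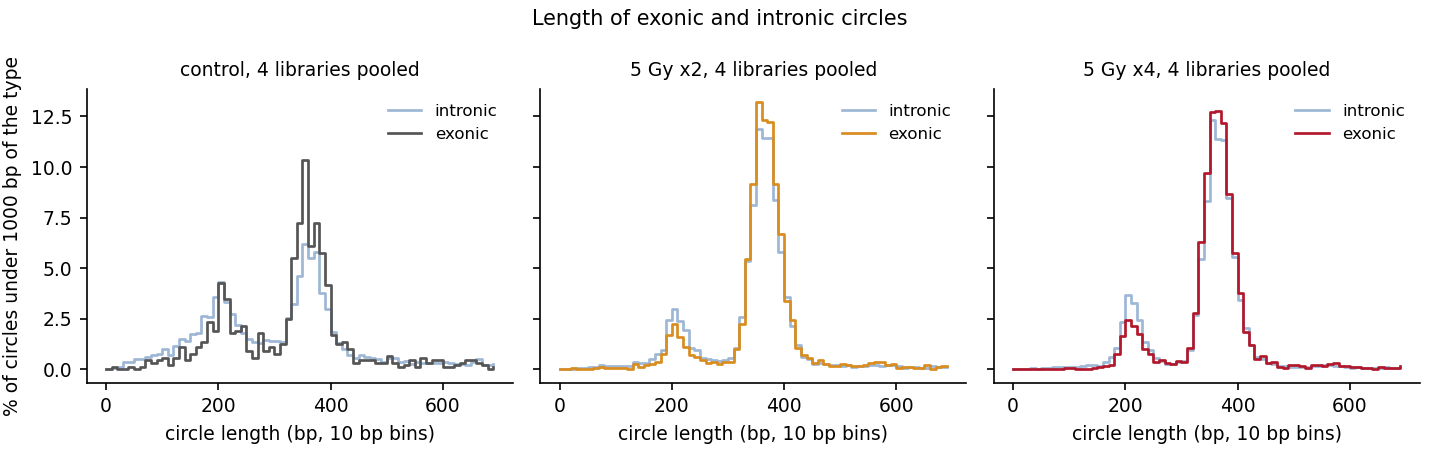
Percentage of exonic (coloured) and intronic (pale blue) circles under 1000 bp in bins of 10 bp, with the 4 libraries of each group pooled and the axis shown to 700 bp. In every panel the tallest exonic bin starts at 350 or 360 bp. The peak near 200 bp is a larger part of the control distribution than of the irradiated ones.

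Exonic circles were set against intronic circles of the same library, a comparison chosen after the data were seen. In all 12 libraries a larger part of the exonic than of the intronic circles measured 330 to under 420 bp, by 8.05 ± 3.64 points (SD, n = 12; exact sign-flip test p = 0.000488, the smallest that 12 libraries allow, adjusted p = 0.0011 over 18 comparisons). Exonic circles were less often of 150 to under 250 bp, with a difference of -5.28 ± 1.14 points, and less often under 150 bp, with a difference of -2.75 ± 2.56 points, again in 12 of 12 libraries each with the same exact p. Against intergenic circles the 330 to under 420 bp share was 6.41 ± 2.89 points higher, in 12 of 12 libraries.

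The exonic share went with circle length. Pooled over the libraries, exonic circles were 1.32% of circles under 50 bp, 2.88% of those of 150 to under 200 bp, 5.54% of those of 300 to under 350 bp, 4.92% of those of 350 to under 400 bp and 5.97% of those of 700 to under 1000 bp. The overlap that the type exon requires is likewise not stated there. Because irradiated libraries held more circles near 360 bp, the share was recomputed with every library given 1 common mix of length classes. It was then 3.58%, 3.71%, 3.88% and 2.32% in control, 3.60%, 4.50%, 4.48% and 4.60% with 5 Gy x2 and 4.57%, 4.82%, 4.73% and 4.29% with 5 Gy x4. The difference from control remained positive, at 0.927 points for 5 Gy x2 (exact p = 0.0857) and 1.23 points for 5 Gy x4 (exact p = 0.0286), and 5 Gy x2 replicate 1 then lay inside the control range.

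The exonic share within each length class was tested with edgeR's quasi-likelihood method on the number of circles per library, over a table of 30 combinations of 5 annotation types and 6 length classes, relative to all circles of that length class. In 5 Gy x4 against control, 3 of the 5 exonic classes under 1000 bp passed an adjusted p of 0.05, and all 3 rose. Of all 30 combinations, 13.3% passed in that comparison. The 3 exonic classes were the only combinations that rose, and the fourth call was a fall of intronic circles of 420 to under 1000 bp. Shares of 1 length class sum to the whole, so a rise of 1 type entails a fall elsewhere.

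In the class of 250 to under 330 bp the mean exonic share was 2.60% ± 1.34 (SD, n = 4) in control, 4.18% ± 0.577 (n = 4) with 5 Gy x2 and 5.16% ± 0.566 (n = 4) with 5 Gy x4. The log2 fold change of 5 Gy x4 over control was 0.91 (SE 0.21, edgeR adjusted p = 0.0135). Control replicate 4 was at 0.609% here and the other controls at 3.09% to 3.48%.

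In the main class of 330 to under 420 bp the share was 3.95% ± 0.737 (n = 4) in control, 4.77% ± 0.356 (n = 4) with 5 Gy x2 and 5.14% ± 0.172 (n = 4) with 5 Gy x4. The log2 fold change of 5 Gy x4 over control was 0.26 (SE 0.08, edgeR adjusted p = 0.0417). This call was lost among circles with at least 2 supporting reads (log2 fold change 0.24, edgeR adjusted p = 0.204) and when any of 9 of the 12 libraries was left out, all but control replicate 3, 5 Gy x2 replicate 1 and 5 Gy x4 replicate 4, with adjusted p from 0.0502 to 0.147 in those 9 fits. In the class of 420 to under 1000 bp it was 3.296% ± 0.806, 4.89% ± 0.967 and 5.18% ± 0.703 (n = 4 each), and the log2 fold change of 5 Gy x4 was 0.68 (SE 0.18, edgeR adjusted p = 0.0173). The 4 libraries of 5 Gy x4 lay above the 4 controls in each of the 3 classes.

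The 2 shorter classes did not pass in 5 Gy x4. The share was 2.46% in control, 3.11% with 5 Gy x2 and 3.18% with 5 Gy x4 at 150 to under 250 bp, and 1.56%, 2.19% and 1.59% under 150 bp. In 5 Gy x2 against control none of the 5 exonic classes passed by edgeR or by DESeq2, with 3.33% of the table called by edgeR and 4 of its 30 combinations at an unadjusted p under 0.05. The nearest was 420 to under 1000 bp, at a log2 fold change of 0.61 (SE 0.19, edgeR adjusted p = 0.0799). Between the doses 0% of the table was called by edgeR and none by DESeq2, and 3 combinations had an unadjusted edgeR p under 0.05. Without 5 Gy x4 replicate 2 no exonic class passed in 5 Gy x4 against control, with log2 fold changes of 0.85, 0.25 and 0.65 in the 3 classes (edgeR adjusted p = 0.0568, 0.0800 and 0.0625), near those of the full fit. Without 5 Gy x4 replicate 3 the class of 250 to under 330 bp alone passed, and without control replicate 3 the class of 420 to under 1000 bp had a log2 fold change of 0.61 (edgeR adjusted p = 0.0731).

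**Figure D3:**
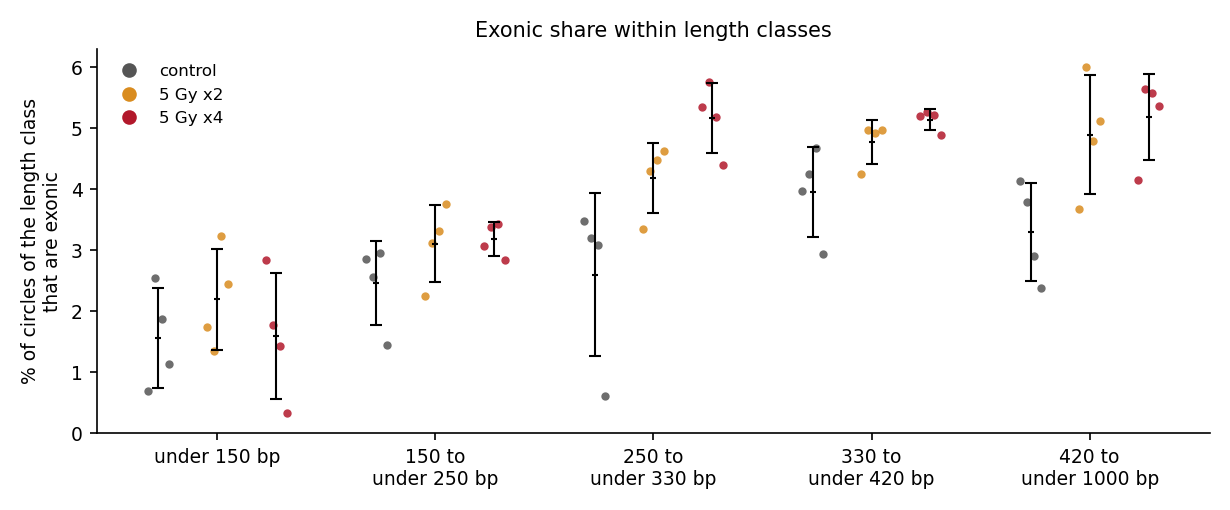
Percentage of the circles of each length class that were exonic, by library (points, in replicate order) with the mean and SD of 4 libraries per group. In the 3 classes from 250 bp upward the 5 Gy x4 points lie above all control points. Below 150 bp the groups overlap.

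The support behind an exonic circle overlapped between the groups. The mean number of supporting reads per exonic circle was 3.95, 9.16, 13.5 and 27.3 in control, 17.6, 2.80, 9.49 and 6.99 with 5 Gy x2 and 6.97, 6.97, 3.48 and 14.0 with 5 Gy x4. The highest and the lowest library were thus a control and a 5 Gy x2 library, and against control 5 Gy x2 had an exact p = 0.543 and 5 Gy x4 an exact p = 0.371.

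Exonic circles carried the hconf label less often than intronic circles in 12 of 12 libraries, with a difference of -8.18 ± 6.11 points (SD, n = 12; exact sign-flip p = 0.000488, adjusted p = 0.0011). The difference was -15.0 ± 5.45 points in control, -5.66 ± 2.95 with 5 Gy x2 and -3.91 ± 2.13 with 5 Gy x4 (n = 4 each). Each dose differed from control in the size of this difference with an exact p = 0.0286, which was 0.110 after adjustment over 54 such tests. Within 330 to under 420 bp the difference was -4.83 ± 8.70 points and 10 of 12 libraries showed it (exact sign-flip p = 0.0200, adjusted p = 0.0328). At that length it lay mostly in control, at -12.8 ± 11.9 points, against -1.34 ± 2.16 with 5 Gy x2 and -0.296 ± 1.17 with 5 Gy x4 (n = 4 each). Control replicate 4 held only 17 exonic circles of that length. Against intergenic circles the hconf difference was -6.82 ± 5.85 points over all lengths, in 12 of 12 libraries, and -3.47 ± 7.80 points within 330 to under 420 bp, which did not pass (exact sign-flip p = 0.148). Mean supporting reads per circle differed by -0.352 between exonic and intronic circles (exact sign-flip p = 0.575), and 11 of 12 libraries were lower for the exonic ones.

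Nearly every exonic circle was seen in 1 library. This held for 97.1% of them, 275 were found in 2 libraries, 16 in 3 and 12 in 4 or more, with a maximum of 8 libraries. Of intronic circles 95.9% and of intergenic circles 96.5% were in 1 library, and some of both were found in all 12. The part of a library's exonic circles that another library also held was lower than for intronic circles in 11 of 12 libraries, by a mean difference of -3.95 ± 5.08 points (SD, n = 12; exact sign-flip p = 0.0137, adjusted p = 0.0246). Against intergenic circles the difference was -2.11 ± 4.56 points (exact sign-flip p = 0.140, adjusted p = 0.157) and did not pass.

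For the 303 exonic circles of several libraries the list also gives the calls that were merged, and in 303 of 303 the entry runs from the first start to the last end of its calls. Their coordinates below are for rn6. The circle found in most libraries, 8, lay in AABR07030520.1 at chr10:91576723-91577231. Its 8 calls measured 290 to 410 bp and were all different, and it was present in 3 control, 1 5 Gy x2 and 4 5 Gy x4 libraries.

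The exonic circle with most supporting reads, 647 over 7 libraries, lay in AABR07007839.1 at chr2:30094505-30095441. It had 158 and 118 reads in control replicates 2 and 4 and none in the other controls, 132, 54, 95 and 30 reads in 5 Gy x2, and 60 reads in 5 Gy x4 replicate 4 alone. It was the only one of the 10 most recurrent exonic circles present in every 5 Gy x2 library.

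A circle of 340 bp in AABR07058884.1, at chr7:141597754-141598093, differed from the other recurrent circles in that its ends were identical in all 5 libraries that held it. It had 34 reads in control replicate 3, 284, 110 and 126 in 5 Gy x2 replicates 1, 3 and 4, and 63 in 5 Gy x4 replicate 4. Together these made 617 reads, the second highest total among the 10 most recurrent circles.

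Among circles in genes with a known function, an 871 bp entry in Pcid2, a factor linked to mRNA export from the nucleus, at chr16:81769924-81770794, was found in 6 libraries, 3 of them controls. An 886 bp entry in Fbxl21, which encodes an F-box protein, was found in 5 libraries, and the shortest of these circles, 104 bp at chr14:21097367-21097470 in Rufy3, in 5 libraries with 89 reads. An entry of 514 bp in Igf2, the gene of insulin-like growth factor 2, at chr1:215844813-215845326, was found in 2 control and 2 5 Gy x2 libraries. It was listed with 44 and 52 reads in the controls, 63 and 22 in 5 Gy x2, and 0 in all 5 Gy x4 libraries. The other 3 of the 10 most recurrent circles lay in AABR07006033.1 (6 libraries), LOC103689965 (5) and the unnamed gene ENSRNOG00000055080 (4). The exonic circle of 1 library with most reads, 191 in 5 Gy x2 replicate 1, lay in Dzip3, an RNA-binding ubiquitin ligase, and was picked out after its value was seen.

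The exonic circles named 7769 genes, of which 7337 have a symbol in the files. A single circle was listed for 5362 of them (69.0%), 2 for 1672, 3 for 491, 4 for 154 and 5 or more for 90. Control circles named 867 genes, those of 5 Gy x2 3317 and those of 5 Gy x4 5314. Of the control genes 455 were also named in irradiated skin, which is 52.5% of the control genes and 6.18% of the irradiated ones. The doses shared 1274 genes, 38.4% of those of 5 Gy x2 and 24.0% of those of 5 Gy x4. The median gene had 1 detection, and the numbers per gene below are not per length of exon.

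The genes with most detections were few. LOC103689965 had 13, in 10 libraries (6 detections in control, 2 with 5 Gy x2 and 5 with 5 Gy x4), and Tchh, which encodes trichohyalin of the inner root sheath of the hair follicle, had 13 in 8 libraries (7, 5 and 1 in the same order). AABR07006049.1 had 11 (4, 3 and 4) and Mycbp2, a large ubiquitin ligase, 11 (4, 4 and 3). The circles listed for Mycbp2 were spread over chr15:87560796-93648439, so its count is of all circles that the annotation assigns to it there. Sspo, which encodes SCO-spondin, had 10 (2, 2 and 6).

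At 9 detections each stood AABR07030520.1 (3, 1 and 5), AABR07058884.1 (3, 4 and 2), Fbn2, a fibrillin of elastic microfibrils (2, 3 and 4), Ryr3, a calcium release channel (0, 3 and 6), and Ubr4, a very large ubiquitin ligase (1, 1 and 7). Muc1, a membrane mucin, had 8 (4, 1 and 3). Lor, which encodes loricrin, the main protein of the cornified envelope, had 8 (6, 2 and 0), with at least 1 in every control library. Against a background in which 8.21% of detections came from control libraries, 7 of 13 for Tchh and 6 of 8 for Lor were in control. Many control detections were not particular to Tchh and Lor among the genes picked for most detections. LOC103689965 had 6 of 13 in control, Muc1 4 of 8, and Mycbp2 and AABR07006049.1 4 of 11 each. Ryr3 had 0 of 9 and Ubr4 1 of 9.

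No single gene passed a test. The 162 genes with an exonic circle in at least 4 libraries were fitted with edgeR, and 0% passed an adjusted p of 0.05 in any of the 3 comparisons. At an unadjusted edgeR p under 0.05 there were 9 genes in 5 Gy x2 against control, 47 in 5 Gy x4 against control and 8 between the doses. The smallest edgeR adjusted p was 0.156, in 5 Gy x4 against control. A gene could enter this fit through irradiated libraries alone, where most detections lay, so the unadjusted counts are not read as a result.

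These genes held their circles in different ways. In Lor 7 of 7 listed circles overlapped another exonic circle, in Muc1 4 of 4 and in Tchh 7 of 9. In Ryr3 and Mycbp2 none of 9 did, and in Ubr4 4 of 9. The Ryr3 circles lay within chr3:104118110-104434175, and those of Mycbp2 within the much longer chr15:87560796-93648439. Of the 7 Ubr4 detections of 5 Gy x4, 6 came from replicate 3.

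**Figure D4:**
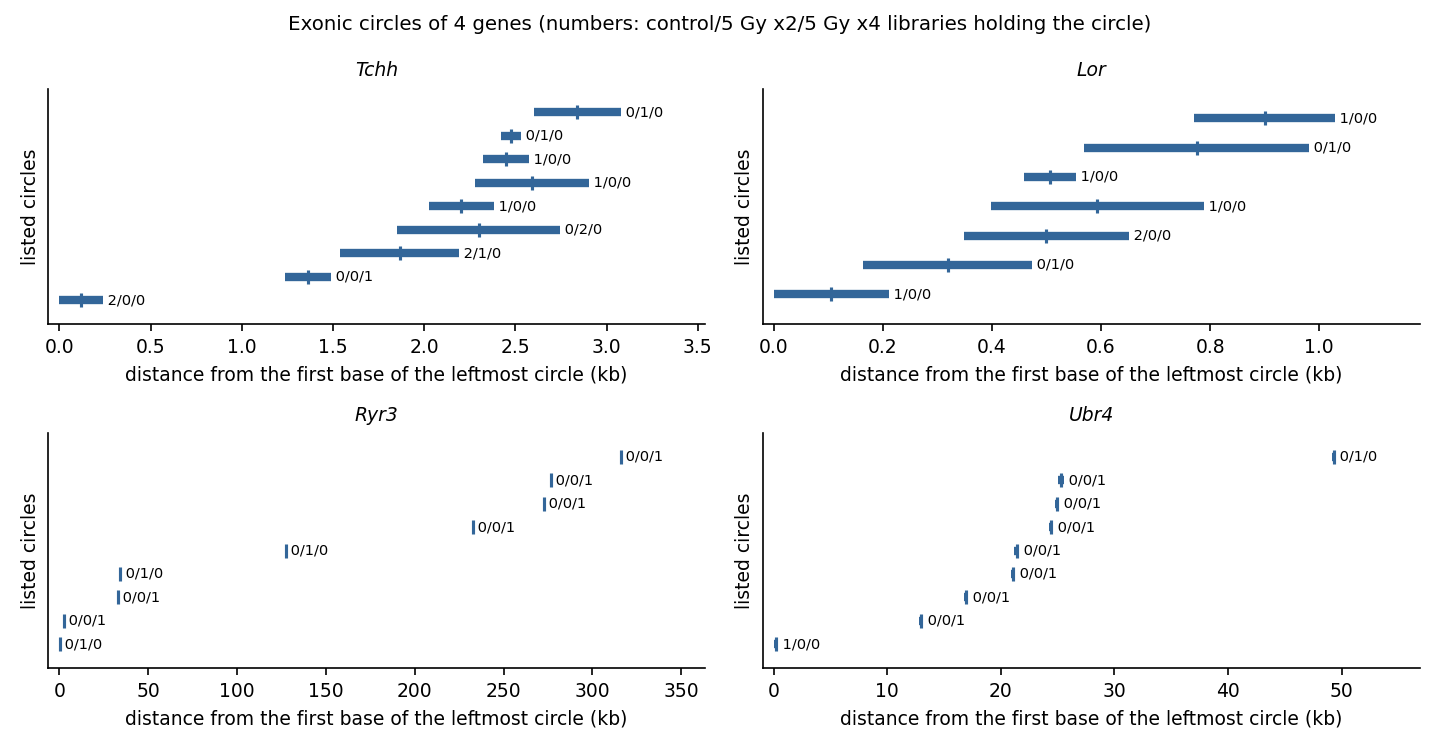
Exonic circles listed for Tchh, Lor, Ryr3 and Ubr4, drawn to scale as bars against the distance from the leftmost circle in kb. The numbers give the control, 5 Gy x2 and 5 Gy x4 libraries that held each circle, and an added tick marks the middle of each bar. The circles of Lor and most of Tchh overlap one another, and those of Ryr3 lie apart.

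Stretches where 3 or more exonic circles overlapped, here called stacks, were defined after the data were seen and are given without a test. There were 18, with 73 circles and 105 detections, while 9905 exonic circles overlapped no other and 237 pairs stood alone. Stacks held 11, 21, 9 and 10 exonic circles in the control libraries, 7, 8, 13 and 4 in 5 Gy x2 and 3, 7, 10 and 2 in 5 Gy x4.

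As a share of the exonic circles this was 7.28%, 6.77%, 2.45% and 17.2% in control, 0.985%, 0.600%, 1.04% and 1.40% with 5 Gy x2 and 0.293%, 0.317%, 0.447% and 0.227% with 5 Gy x4. The 3 groups did not overlap, and the smallest control library held the highest share. In number, stacks held 12.75 ± 5.56 (SD, n = 4) exonic circles per library in control, 8 ± 3.74 (n = 4) with 5 Gy x2 and 5.50 ± 3.70 (n = 4) with 5 Gy x4, ranges that overlap. A detection in control was present in 14 of the 18 stacks, and 8 had no detection in 5 Gy x4.

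The stack of Tchh spanned chr2:193781219-193782757 with 7 circles and 10 detections, 5 in control and 5 in 5 Gy x2. That of Lor spanned chr2:191984796-191985825 with 7 circles and 8 detections, 6 in control and 2 in 5 Gy x2. Stacked circles had other lengths than the rest: 21.9% of them measured 330 to under 420 bp, against 73.0% of the exonic circles outside stacks. Leaving the stacks out left the group differences at 1.57 (5 Gy x2) and 1.90 points (5 Gy x4) in exonic share, and at 27.6 and 27.8 points in the share of 330 to under 420 bp (exact permutation p = 0.0286 for each).

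Gene families were counted by 11 lists that were chosen with earlier results of these data known, so their counts are descriptions. In the keratin and cornified envelope list, which holds structural proteins of epidermis and hair, 35 genes had an exonic circle, with 24 detections in control, 26 with 5 Gy x2 and 18 with 5 Gy x4. Control libraries supplied 35.3% of them. The list took 3.84% ± 2.41 (SD, n = 4) of the exonic circles in control, 0.701% ± 0.144 (n = 4) with 5 Gy x2 and 0.233% ± 0.152 (n = 4) with 5 Gy x4. The control libraries ranged from 1.90% to 6.90% and the irradiated ones from 0.0978% to 0.900%, without overlap. Tchh and Lor, counted above, supplied 13 of its 24 control detections.

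The collagen list, the fibrous and membrane proteins of dermis and basement membrane, went the other way. It had 1 detection in control, 17 with 5 Gy x2 and 48 with 5 Gy x4, in 31 genes with a median of 2 detections. Control libraries supplied 1.52% of them, against 8.21% of all exonic detections. Its share of exonic circles was 0.0806% ± 0.161 (n = 4) in control, 0.509% ± 0.320 (n = 4) with 5 Gy x2 and 0.740% ± 0.226 (n = 4) with 5 Gy x4. Control replicates 1, 3 and 4 had 0 collagen circles and replicate 2 had 1, whereas every irradiated library had at least 1. The groups still overlapped in share, with control replicate 2 at 0.323% and 5 Gy x2 replicate 2 at 0.300%. Col11a1, a chain of cartilage collagen, and Col17a1, the hemidesmosomal collagen that anchors basal keratinocytes, had 4 detections each, of which 3 were in 5 Gy x4 and 1 in 5 Gy x2. With few exonic circles in control, a share near 0.5% corresponds to fewer than 2 circles per library there.

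Zinc finger genes, the largest family of transcription factors, gave 30, 56 and 93 detections in 122 genes. They took 5.07% ± 4.67 (n = 4) of the exonic circles in control, 1.51% ± 0.381 (n = 4) with 5 Gy x2 and 1.43% ± 0.172 (n = 4) with 5 Gy x4. Control replicate 4 stood at 12.1% and control replicates 1 to 3 at 2.65%, 2.58% and 2.99%. The irradiated libraries ranged from 1.05% to 1.97%, without overlap with control, as in the keratin and cornified envelope list. Zfp36l3, an RNA-binding protein that matches the list by name, led with 7 detections (2, 2 and 3), ahead of Zfp629 with 5 (1, 0 and 4).

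The list of giant coding genes, among them Ryr3 and Ubr4, kept a similar share in every group: 1.16% ± 0.834, 1.08% ± 0.269 and 1.28% ± 0.430 (n = 4 each), from 12, 35 and 79 detections. Its 32 genes had a median of 3 detections, the highest of the lists. Olfactory and vomeronasal receptor genes, which are tissue-specific genes of smell and pheromone sensing, gave 10, 33 and 62 detections in 99 genes. Of these 9.52% were in control, close to the 8.21% of all detections. Vom2r43 had 3 detections and Olr12 had 2.

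DNA damage response and repair genes gave 3, 22 and 36 detections in 34 genes. The leading ones were Prkdc, the catalytic subunit of the DNA-dependent protein kinase, with 6 (1, 3 and 2), and Atm, the kinase that responds to double strand breaks, with 4 (1, 1 and 2). The 3 control detections were all in replicate 3. This list took 0.204% ± 0.408, 0.642% ± 0.0721 and 0.518% ± 0.239 of the exonic circles (n = 4 each). Cadherin and protocadherin genes gave 3, 21 and 34, with 4 each for the giant cadherins Fat1 and Fat3, none of them in control. They took 0.229% ± 0.305, 0.537% ± 0.135 and 0.518% ± 0.143 of the exonic circles (n = 4 each).

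Oncogenes and growth factor receptors gave 1, 9 and 23 detections, led by the neurotrophin receptor Ntrk2 and by Notch1 with 3 each. They took 0.166% ± 0.331, 0.311% ± 0.291 and 0.363% ± 0.0785 of the exonic circles (n = 4 each). A mean share lowest in control was thus shared by the collagen, repair, cadherin and oncogene lists. In each of these lists, collagen included, control and irradiated libraries overlapped. Histone genes gave 2, 3 and 2, among them H1f2 with 2 and H1f5 with 1, which are linker histones. Ribosomal protein genes gave 0, 4 and 7, with Rps25 at 2 and Rpl13a at 1. The immunoglobulin, T cell receptor and MHC list gave 1, 0 and 5, with 1 each for RT1-CE1 and RT1-CE10 of the rat class I region. Each of the last 3 lists had too few detections for a share to be read.

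**Figure D5:**
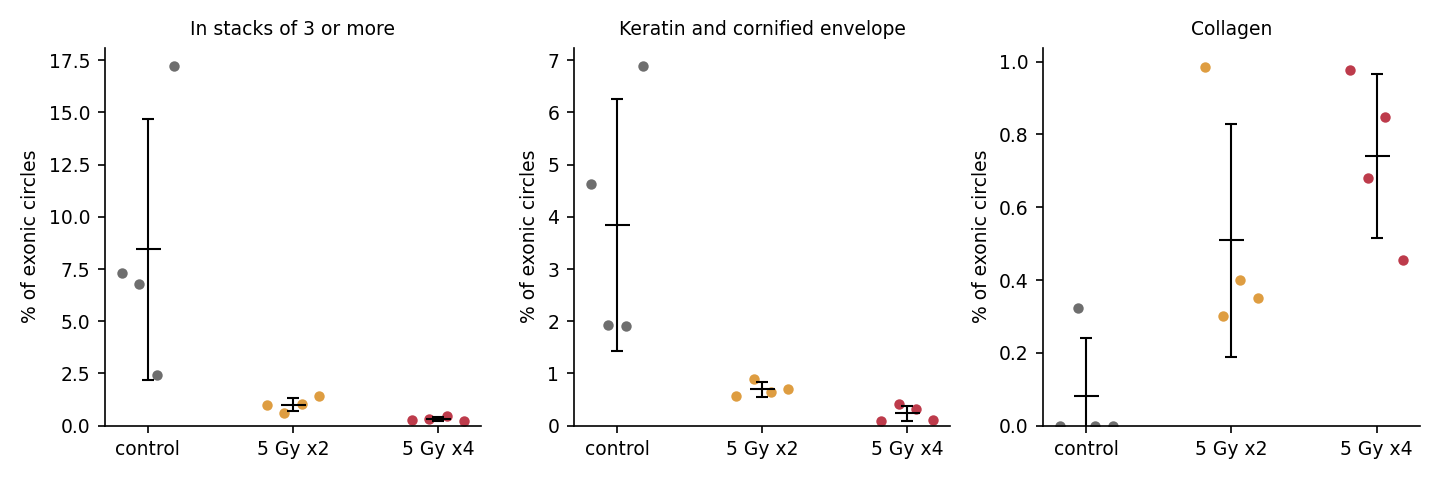
Percentage of the exonic circles under 1000 bp of each library that lay in stacks (left), in keratin and cornified envelope genes (middle) or in collagen genes (right), with points in replicate order and the mean and SD of 4 libraries. The first 2 panels have every control library above every irradiated one, and in the collagen panel 3 controls lie at 0.

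Exonic circles came from every chromosome. Chromosome 1 held most, 1270, and the exonic part of its circles under 1000 bp was 5.58%. That part was highest among the autosomes on chromosome 10, at 7.51%, and lowest on chromosome 15, at 3.31%. The distribution over 21 chromosomes (Y left out for low counts) was compared with edgeR as a share of each library's exonic circles.

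Chromosome 18 was the only one that passed, in 5 Gy x2 against control, where 4.76% of the chromosomes were called. It held 1.25% ± 0.515 (SD, n = 4) of the exonic circles in control and 3.03% ± 0.225 (n = 4) in 5 Gy x2, a log2 fold change of 1.25 (SE 0.37, edgeR adjusted p = 0.0416). Its control values rest on 1, 3, 6 and 1 circles, against 23, 40, 34 and 9 in 5 Gy x2. In 5 Gy x4 it held 2.64% ± 0.338 (n = 4), with a log2 fold change of 1.14 (edgeR adjusted p = 0.0811). No chromosome passed in 5 Gy x4 against control by edgeR, where 0% were called and 3 had an unadjusted p under 0.05, and none by DESeq2. Between the doses 0% were called, with 1 at an unadjusted p under 0.05 and none by DESeq2. The chromosome 18 call was lost when control replicates 1, 2 or 3 or 5 Gy x2 replicates 1 or 2 were left out, and also by DESeq2.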

How the data were processed

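Circle-seq of 12 skin libraries gave 1 list of circles for the series and 1 file per library with the count of reads supporting each circle, as deposited by the authors. BWA, Picard, bedtools and the build rn6 are named per the submitters' processing notes, without versions. By what rule the authors merged calls across libraries and defined the annotation types and confidence labels is not given in the sources used here. A circle was present in a library with at least 1 read. Circle starts were moved to 1-based positions. Another 8 per-library columns were not used.

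Numbers, shares and medians per library were compared by two-sided exact permutation of 4 against 4 libraries, and exonic against other circles of the same library by exact sign-flip, with Benjamini-Hochberg adjustment. Tables of numbers of circles were fitted with edgeR 4.0.16 (quasi-likelihood, R 4.3.3) on all 12 libraries, with DESeq2 1.42.0 as an alternative, and checked on simulated data. The default edgeR filter left no genes, so genes with a circle in at least 4 libraries were tested. Reads carry no molecular identifiers and may be PCR copies, so intervals cover counting error only. The members, the comparisons and the 11 gene lists were chosen with earlier results of these data known. The genes named are the 12 with most detections, 2 per list with most, any gene past the threshold, the 10 circles in most libraries and the circle with most reads. Dzip3 and the genes of overlapping circles in the closing section were picked after their values were seen. Gene symbols are those of the files. Alternatives were fewer or stricter circles, other scalings, the replicate number as a block and each library left out.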

Additional observations from a re-analysis of the deposited data

Results flagged for a closer look

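In 5 cases 1 library stood apart from the other 3 of its group, by a gap above Dixon's 95% critical value for the group's range. Chance flags about 1 in 20 groups, and 42 groups were looked at. Control replicate 4 had an exonic share of 1.76% against 3.35% to 3.68% in the other controls, and an exonic share of 0.609% at 250 to under 330 bp against 3.09% to 3.48%. It was also the library with the fewest exonic circles, 58. 5 Gy x2 replicate 1 had an exonic share of 3.60% at the common mix of length classes against 4.48% to 4.60%, and 4.24% at 330 to under 420 bp against 4.93% to 4.96%. It had the most supporting reads, 404815. 5 Gy x4 replicate 4 had 4.88% at 330 to under 420 bp against 5.20% to 5.26%.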

How the results depend on the processing

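Per 10000 supporting reads the 5 Gy x4 number was 2.86-fold control (exact p = 0.0571). The exonic share of 5 Gy x2 lost its p of 0.0286 with entries of 1 call only (1.31 points, chosen after seeing the data; exact p = 0.0857) and at the common mix of length classes (0.927 points). The 330 to under 420 bp share of 5 Gy x2 was 29.9 points above control among hconf circles (exact p = 0.0571), and the small difference between the doses turned to -0.45 points with entries of 1 call only. The median length differed by 10.9 bp in 5 Gy x2 with at least 2 reads (exact p = 0.0571) and by 18.25 bp in both doses among hconf circles (exact p = 0.600 and 0.686). In the table of length classes, 5 Gy x2 had 1 exonic class past the threshold with at least 2 reads and 2 with the library total as offset. With that offset, which mixes in the change of length, exonic log2 fold changes turned to -1.77, -0.53, -0.30 and -0.20 in 5 Gy x2 (under 150, 150 to under 250, 250 to under 330 and 420 to under 1000 bp), to -0.25, -0.091 and -0.31 in 5 Gy x4 (the last 3 of these), and to -0.11 between the doses (420 to under 1000 bp). With at least 2 reads they turned to -0.028 under 150 bp in 5 Gy x2 and to -0.0011 between the doses at 420 to under 1000 bp. Chromosome 18 was lost in 5 Gy x2 (0 chromosomes called) with at least 2 reads, TMM and DESeq2, and with at least 2 reads 1 chromosome was called in 5 Gy x4. As the exonic share of each chromosome's own circles, a different quantity, 5 chromosomes were called in 5 Gy x2 and 11 in 5 Gy x4 (23.8% and 52.4% of 21), all higher than control. The causes of these changes were not tested.

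Leaving out 1 library at a time, where 3 against 4 libraries allow an exact p no lower than 0.0286, gave 3.24 to 5.17-fold (5 Gy x2) and 5.74 to 9.17-fold (5 Gy x4) for the number over control, 0.967 to 1.62 and 1.27 to 1.91 points for the exonic share, 24.3 to 34.1 and 24.9 to 34.7 points for 330 to under 420 bp, and 8.67 to 12.3 and 7.17 to 10.8 bp for the median length. Each of these stayed above control. The exact p rose to 0.0571 for the 5 Gy x4 number without control replicates 1, 2 or 3, and to 0.0857 without control replicate 4. It rose to 0.0571 for the 5 Gy x2 exonic share without control replicates 1 or 4 or 5 Gy x2 replicates 2, 3 or 4, for the 330 to under 420 bp share of each dose without any library of that dose, for the median length of 5 Gy x4 without any 5 Gy x4 library, and for that of 5 Gy x2 without control replicate 2 or 5 Gy x2 replicates 1, 2 or 3. The 5 Gy x4 exonic share kept an exact p of 0.0286 in all 8, and the 5 Gy x2 number reached 0.0286 without 5 Gy x2 replicate 4. Between the doses the 330 to under 420 bp difference ranged from -1.45 to 2.07 points, and mean reads per circle from -3.51 to 1.42. Mean reads in 5 Gy x2 against control ranged from -7.43 to 0.35. Exonic classes past the threshold ranged from 0 to 1 in 5 Gy x2 and from 0 to 3 in 5 Gy x4, and chromosomes from 0 to 1 in 5 Gy x2. Log2 fold changes that turned were under 150 bp (-0.029 to 0.63 in 5 Gy x2, -0.40 to 0.29 in 5 Gy x4) and, between the doses, 150 to under 250 bp (-0.025 to 0.17) and 420 to under 1000 bp (-0.042 to 0.28).

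Replicate numbers are shared by the groups, and the labels do not say whether they pair the libraries. The deviations of libraries of 1 number had correlations of -0.34 to 0.40 over 24 features, with both signs. Whether the numbers mark a shared batch was not tested. With the replicate block, 4 pairs cannot go below an exact p of 0.125. That was the p of every called difference from control: 7.15-fold in number, 1.40 and 1.70 points in exonic share, 29.1 and 29.7 points at 330 to under 420 bp, and 10.75 and 9.25 bp in median length. The block gave 1 exonic class in 5 Gy x2.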

Other observations

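Other stacks than those of Tchh and Lor are given here as values. These genes were chosen after their values were seen. Simc1, which encodes a SUMO-binding protein, had 6 overlapping exonic circles at chr17:10621955-10622915, with 5 detections in control and 2 in 5 Gy x4. Itpr3, a calcium channel of the endoplasmic reticulum, had 5 at chr20:5688886-5690000, with 1, 4 and 1 detections in control, 5 Gy x2 and 5 Gy x4. Cylc2, a protein of the sperm head, had 3 at chr5:66313629-66314624 with 4, 3 and 0, and all 4 control libraries held one. Rhox2, a homeobox gene of reproductive tissue, had 3 on chromosome X with 5, 1 and 0. Rrbp1, a ribosome-binding protein of the endoplasmic reticulum, had 3 with 4, 1 and 0.

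The stacks of Otud7a (0, 1 and 2) and Uhrf1bp1 (0, 1 and 2), and one in an unnamed gene on chromosome 1 (0, 3 and 0), had no detection in control.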
